A study of Mus musculus musculus x M. m. domesticus and Mus musculus domesticus and Mus musculus with 12 samples.

Results

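Testis expression was compared between males with a *M. domesticus* mother and males with a *M. musculus* mother. All 12 arrays of the series entered the comparison, 6 from sons of LEWES/EiJ females and 6 from sons of PWK/PhJ females, and the subspecies of the father was a term of the model. With the maternal strain written first, the sons of LEWES/EiJ females were fertile *DxD* males (LEWES/EiJ x WSB/EiJ) and fertile *DxM* hybrids (LEWES/EiJ x PWK/PhJ). The sons of PWK/PhJ females were fertile *MxM* males (PWK/PhJ x CZECHII/EiJ) and sterile *MxD* hybrids (PWK/PhJ x LEWES/EiJ). Each cross was represented by 3 males aged 60 days, with 1 Affymetrix array of whole testis RNA per male, and values are log2 expression levels of 7000 genes. Differences are given as LEWES/EiJ mother minus PWK/PhJ mother, so that a negative value means a higher level in sons of PWK/PhJ females. A gene was said to follow the mother when this difference passed the test in both father backgrounds with the same sign.

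Sons inherit their X chromosome and their mitochondria only from the mother, and their Y chromosome from the father. In the male germ line the X chromosome is silenced during meiosis and is transcribed again, in part, in round spermatids, where many X-linked genes of sperm formation are expressed. In this design the *DxD* and *DxM* males carry a LEWES/EiJ X chromosome, and the *MxM* and *MxD* males a PWK/PhJ X chromosome. The mother also contributes an autosomal set, so for autosomal genes an effect of the mother and an effect of the number of *M. domesticus* alleles cannot be told apart within 1 father background. Within each background the fathers differ in strain as well, WSB/EiJ and LEWES/EiJ in one and PWK/PhJ and CZECHII/EiJ in the other. The domesticus-father comparison, *DxD* with *MxD*, is at the same time a comparison of fertile with sterile males. The musculus-father comparison, *DxM* with *MxM*, is between fertile males only.

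The arrays were quantile normalized, with a median of 8.14 on each, and carry no read depth. The within-cross variance averaged over genes was 0.0879 in *MxM* and 0.0147 to 0.0278 in the other 3 crosses. One *MxM* array, replicate 3, had 131 genes at least 1 log2 unit below all other arrays, against at most 4 genes on any other array. Names could be given to 45 genes only, the 32 X-linked and 13 autosomal genes that the study listed, and a chromosome to 2005 autosomal genes. Spermatid genes such as *Tsga8* (11.68 to 12.47) and the Leydig cell gene *Cyp17a1* (9.54 to 11.29) were measured on all arrays, and of the other marker genes listed for testis cell types only *Dnmt3a* could be matched to an identifier.

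Over all genes, 1168 or 16.7% differed by the mother (limma with the father's subspecies as covariate, Benjamini-Hochberg 5%), of which 528 were higher in sons of LEWES/EiJ females and 640 in sons of PWK/PhJ females. With a domesticus father 2170 genes or 31% differed, 1054 higher and 1116 lower with the LEWES/EiJ mother. With a musculus father 1181 genes or 16.9% differed, 456 higher and 725 lower, and 496 higher and 556 lower without *MxM* replicate 3, the array that stands apart. The median difference over all 7000 genes was 0.01 with a domesticus father and -0.02 with a musculus father, values near 0 that the quantile normalization fixes. The differences of the same gene in the 2 backgrounds, which share no array, correlated weakly across genes (Pearson r = 0.186, Spearman rho = 0.129, n = 7000 genes, which are not independent replicates). They had the same sign in 53.5% of genes.

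A total of 372 genes, 5.31% of those tested, followed the mother in both backgrounds. In 178 genes or 2.54% the level was higher with a LEWES/EiJ mother, and in 194 genes or 2.77% it was higher with a PWK/PhJ mother. The larger side was not stable, with 204 and 172 genes without *MxM* replicate 3. These genes were chosen for a difference in both backgrounds, so larger differences and separate groups follow from the choice. The median absolute difference of the 372 was 0.50 with a domesticus father and 0.48 with a musculus father, where all genes had 0.20 and 0.15. In 116 of them the difference reached 0.5 in both backgrounds, and in 12 it reached 1. In 158 of the 372 the 6 sons of LEWES/EiJ females did not overlap with the 6 sons of PWK/PhJ females, a separation found in 3.96% of all genes. Without *DxM* replicate 1 the number that followed the mother was 243, and with the replicate numbers blocked it was 669.

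Most of the 372 genes also differed by the father. A paternal difference passed the test with at least 1 mother in 271 of them, and in 147 it passed with both mothers in the direction of the maternal difference. The background of such calls was 12.1% of genes between *DxD* and *DxM* and 30.3% between *MxD* and *MxM*. In 101 genes no paternal difference passed. The reciprocal hybrids carry the same autosomal mix, and *DxM* minus *MxD* equals the averaged maternal effect minus the averaged paternal effect. It passed the test in 455 genes or 6.5%, which became 1201 when replicate numbers were blocked and 172 without *MxD* replicate 3. Of the genes that followed the mother, 74 also differed between the hybrids in the same direction, 30 higher with a LEWES/EiJ and 44 with a PWK/PhJ mother. Choosing by the hybrid contrast disfavours a paternal difference in the same direction, so fewer paternal calls follow in part from the choice. The 74 genes were 1.06% of all genes, and 37 of them had no paternal call. The count was 194 with the replicate numbers blocked, 40 without *DxM* replicate 1, 46 to 48 without *DxM* replicate 2 or 3, and 45 without *MxD* replicate 3.

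**Figure D1:**
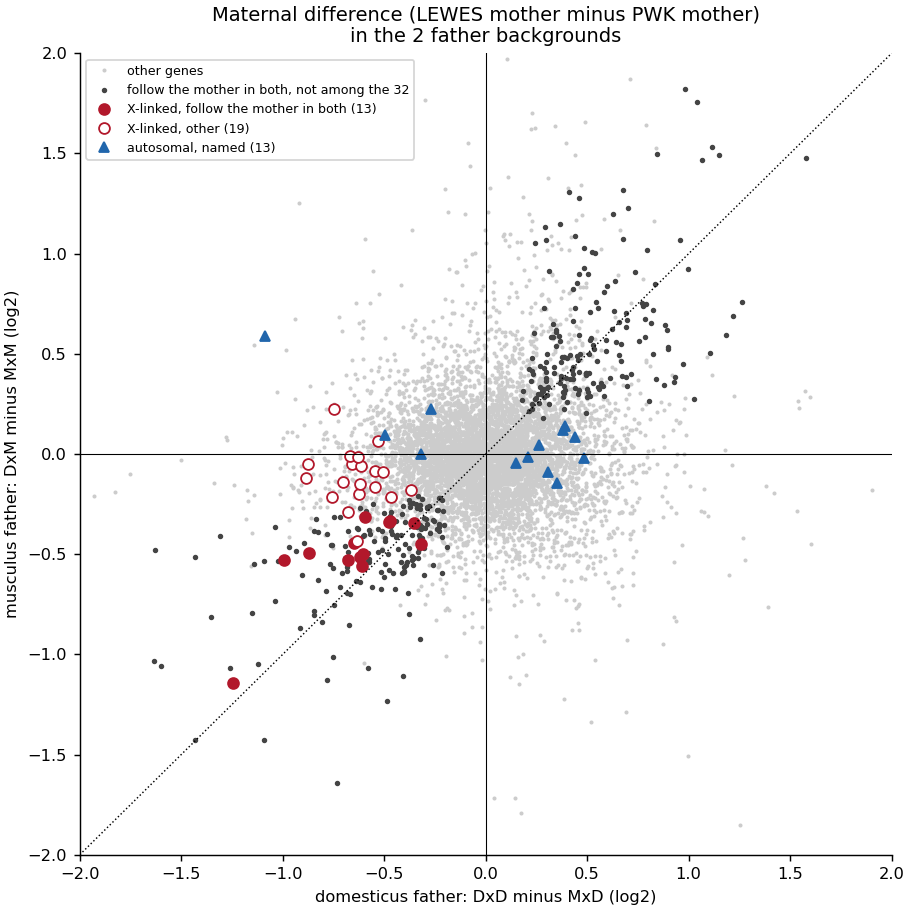
Maternal difference (LEWES/EiJ mother minus PWK/PhJ mother, log2) of each gene with a domesticus father on the x axis and with a musculus father on the y axis, with equality as a dotted line; 18 genes lie outside the axes. The 13 filled red X-linked genes lie at negative values on both axes, and most of the 19 open red ones lie near 0 on the y axis.

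The X-linked genes with a name are 32 genes of high postmeiotic expression that the study listed because their mean in *MxD* was above that of each fertile cross, with a significant difference from *DxM* and from at least 1 of *DxD* and *MxM*. They were selected on these same males, so the *DxD* minus *MxD* differences are not independent evidence, and the *DxM* males of the musculus-father comparison also took part in the selection. In bulk testis, cell number and RNA per cell cannot be told apart. The paper reasons that a smaller share of postmeiotic cells should lower postmeiotic genes in sterile males. The 269 autosomal postmeiotic genes had a median difference of 0.22 with a domesticus father, opposite in sign to the X-linked genes below. With a musculus father their median was -0.04. The part of cell composition was not tested. With a domesticus father all 32 were higher in the sons of PWK/PhJ females, where 15.9% of all genes passed in this direction. With a musculus father 13 of 32 passed, against 10.4% of all genes in this direction, and 30 of 32 had a negative difference. All 13 that passed there followed the mother in both backgrounds, and each was higher with a PWK/PhJ mother. The median difference of the 32 genes was -0.62 with a domesticus and -0.22 with a musculus father.

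The 13 calls with a musculus father rest on a spread shared by the 4 crosses. In fits of only the 2 crosses compared, 5 of the 32 X-linked genes and 533 of all genes passed with a musculus father. The methods' t-test after Benjamini-Hochberg adjustment left 1 of the 32 and 179 of all genes, and at an unadjusted p under 0.05 it gave 16 and 1559. Limma with weights by cross kept all 13, and 827 of all genes passed.

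The largest averaged difference among these 13 genes was that of *1110059M19Rik* (ENSMUSG00000037086, X chromosome, start 42444081 in NCBI build 37), an X-linked gene named only by its cDNA clone. It measured 6.06, 6.09 and 6.01 in the *DxD* males and 5.92, 5.79 and 5.88 in the *DxM* males. In the sons of PWK/PhJ females it measured 7.34, 7.37 and 7.19 (*MxD*) and 6.88, 7.02 and 7.13 (*MxM*). Every son of a PWK/PhJ female was thus above every son of a LEWES/EiJ female, and the sterile *MxD* males were the highest. The difference was -1.25 with a domesticus father (standard error 0.08, limma adjusted p = 3.6e-06) and -1.14 with a musculus father (standard error 0.08, limma adjusted p = 8.3e-06). Averaged over fathers it was a 2.29-fold higher level with a PWK/PhJ mother. The difference of the maternal effect between fathers was -0.10 (95% interval -0.35 to 0.15).

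*Ctag2* (start 62300819) encodes a cancer/testis antigen, a protein normally confined to the germ line. Its level was 9.53, 9.26 and 9.40 in *DxD* and 9.40, 9.47 and 9.26 in *DxM*. It was 10.44, 10.49 and 10.23 in *MxD* and 9.76, 9.89 and 10.07 in *MxM*. The 2 maternal groups did not overlap, and the *MxD* males were above the *MxM* males. The maternal difference was -0.99 with a domesticus father (standard error 0.11, limma adjusted p = 8.1e-05) and -0.53 with a musculus father (standard error 0.11, limma adjusted p = 0.0063). *Ctag2* was the 1 gene of the 13 in which the maternal effect also differed between fathers, by -0.47 (limma adjusted p = 0.046).

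*Piga* (start 160857719) encodes the catalytic part of the enzyme for the first step of GPI anchor synthesis, through which many proteins are held at the cell surface. It measured 7.23, 7.22 and 7.30 in *DxD*, and 7.02, 7.26 and 7.12 in *DxM*. The *MxD* males had 7.77, 8.04 and 7.97 and the *MxM* males 7.47, 7.67 and 7.85. No son of a PWK/PhJ female reached down to the sons of LEWES/EiJ females. The differences were -0.68 with a domesticus father (limma adjusted p = 7.9e-04) and -0.53 with a musculus father (limma adjusted p = 0.0060), each with a standard error of 0.11. *MxD* and *MxM*, which share the PWK/PhJ X chromosome, differed by 0.26 (limma adjusted p = 0.081).

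*Actrt1* (start 43682184), an actin-related protein of the sperm head, measured 8.15, 8.19 and 8.30 in *DxD* and 7.92, 8.21 and 8.06 in *DxM*. It measured 8.62, 9.02 and 8.86 in *MxD* and 8.39, 8.57 and 8.77 in *MxM*. The 2 maternal groups were again separate. The difference was -0.62 with a domesticus father (limma adjusted p = 0.0031) and -0.51 with a musculus father (limma adjusted p = 0.015). The protein of *Ribc1* (start 148439125) lies in the microtubule doublets of the sperm flagellum. Its level was 8.48 to 8.49 in *DxD*, 8.36 to 8.51 in *DxM*, 9.03 to 9.18 in *MxD* and 8.78 to 9.09 in *MxM*. The difference was -0.60 with a domesticus father (limma adjusted p = 4.0e-04) and -0.50 with a musculus father (limma adjusted p = 0.0025), and the groups did not overlap.

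**Figure D2:**
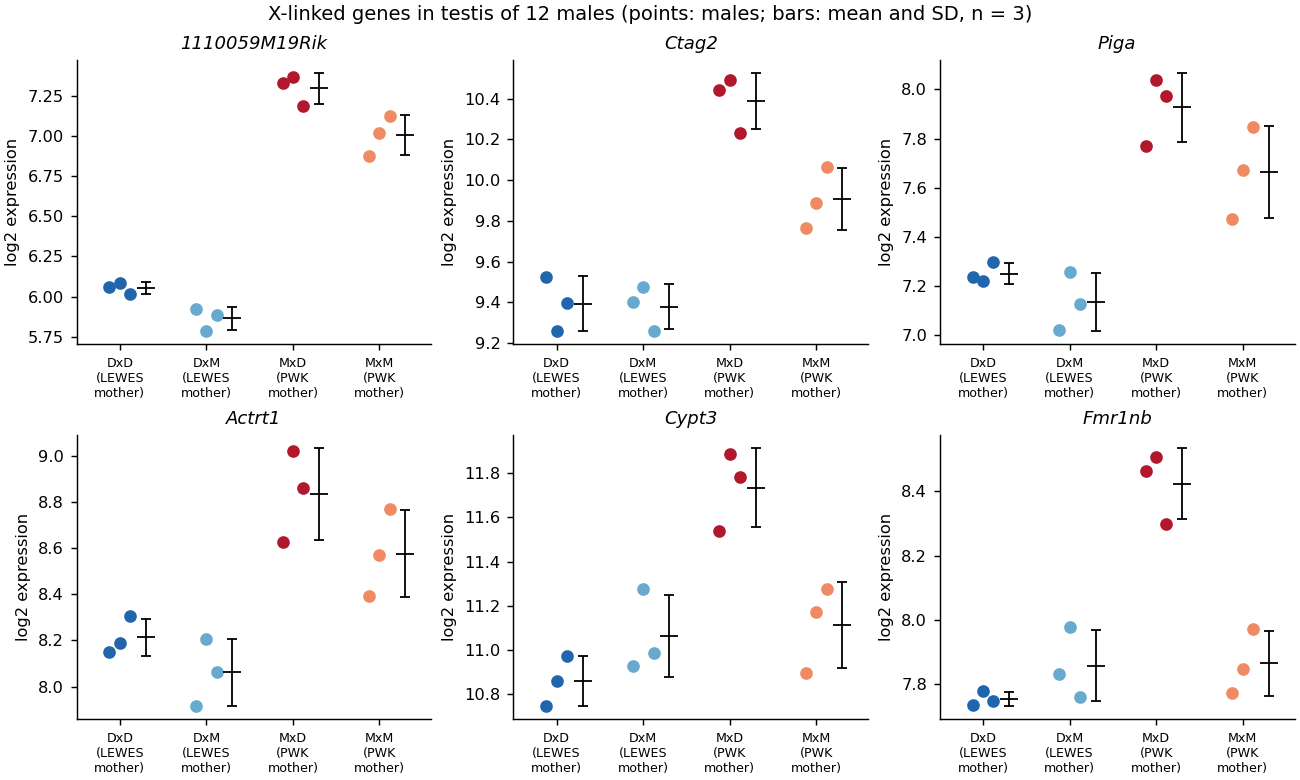
Log2 expression (y axis) of 6 X-linked genes in the 3 males of each cross (points), with the mean and SD beside them. In *1110059M19Rik*, *Ctag2*, *Piga* and *Actrt1* all sons of PWK/PhJ females lie above all sons of LEWES/EiJ females, and in *Cypt3* and *Fmr1nb* the *MxM* males lie among the sons of LEWES/EiJ females.

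Another 3 genes known by clone names had differences of similar size. *4930412D23Rik* differed by -0.87 with a domesticus and -0.50 with a musculus father, *4930468A15Rik* by -0.61 and -0.56, and *1600014K23Rik* by -0.35 and -0.34. In these 3 the maternal groups did not overlap either. *AL773568.19* was at -0.65 and -0.44 and *4930402K13Rik* at -0.32 and -0.45. *Satl1*, an acetyltransferase-like gene, was at -0.60 and -0.32. *Tsga8*, a nuclear protein gene of spermatids, was at -0.48 and -0.34, and *Efhc2*, a gene of the flagellar axoneme, at -0.47 and -0.34. In *Tsga8*, *Efhc2*, *AL773568.19* and *4930402K13Rik* the maternal groups overlapped. The paternal difference *DxD* minus *DxM* passed in 3 of the 32, where 12.1% of all genes passed. They were *Efhc2* (0.30, limma adjusted p = 0.034), *4930402K13Rik* (0.50, limma adjusted p = 0.0053) and *1600014K23Rik* (0.22, limma adjusted p = 0.044). *DxD* and *MxM* were level in *Efhc2* (-0.03, limma adjusted p = 0.81) and *4930402K13Rik* (0.05, limma adjusted p = 0.71). All 13 genes differed between the reciprocal hybrids too, as did 31 of the 32, where 3% of all genes were higher in *MxD* than in *DxM*. That contrast was part of the study's selection.

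The 13 genes were not all equally stable. *1110059M19Rik* followed the mother in 24 of 25 alternative settings, and *Ctag2*, *Piga*, *Ribc1* and *AL773568.19* did in 24 of 26. *Actrt1* did so in 21, *Satl1* in 20, *Tsga8* in 19 and *Efhc2* in 18 of 26, and *4930402K13Rik* in 17 of 25. The number of the 32 that followed the mother was 10 without *DxM* replicate 1, 16 without *MxM* replicate 1, 12 without *MxM* replicate 3 and 16 when replicate numbers were blocked.

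The *MxM* males are the fertile males with a PWK/PhJ X chromosome. In 9 of the 13 genes every *MxM* male was above every *DxD* and *DxM* male, a pattern of 13% of all genes that the choice of the 13 favoured, since *MxM* had to be above *DxM*. Between the 2 within-subspecies crosses, *DxD* and *MxM*, 7 of the 13 genes passed the test, against 31.9% of all genes in either direction. The choice of the 13 used low *DxD* and high *MxM* values, so this count is not independent evidence. The *MxD* mean was above the *MxM* mean in all 13, as the study's selection required, and this difference passed in 9, where 30.3% of all genes passed in either direction. Averaged over the 13 genes, the log2 level was 8.25 ± 0.04 (SD, n = 3) in *DxD*, 8.09 ± 0.03 in *DxM*, 8.59 ± 0.14 in *MxM* and 8.90 ± 0.01 in *MxD*. Averaged over the other 19 it was 9.04 ± 0.07, 9.03 ± 0.09, 9.14 ± 0.14 and 9.68 ± 0.05 in the same order. The nearness of *MxM* to *DxM* in those 19 follows from how the genes were divided. The starts of the 13 genes spread over the X chromosome from 8.682 to 160.9 Mb, and those of the 19 others from 9.424 to 166.2 Mb. Over the 6 and 6 arrays, 11 of the 32 genes had all sons of PWK/PhJ females above all sons of LEWES/EiJ females, against 2.04% of all genes. The study's selection required *MxD* means above those of *DxD* and *DxM*, which favoured this separation.

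**Figure D3:**
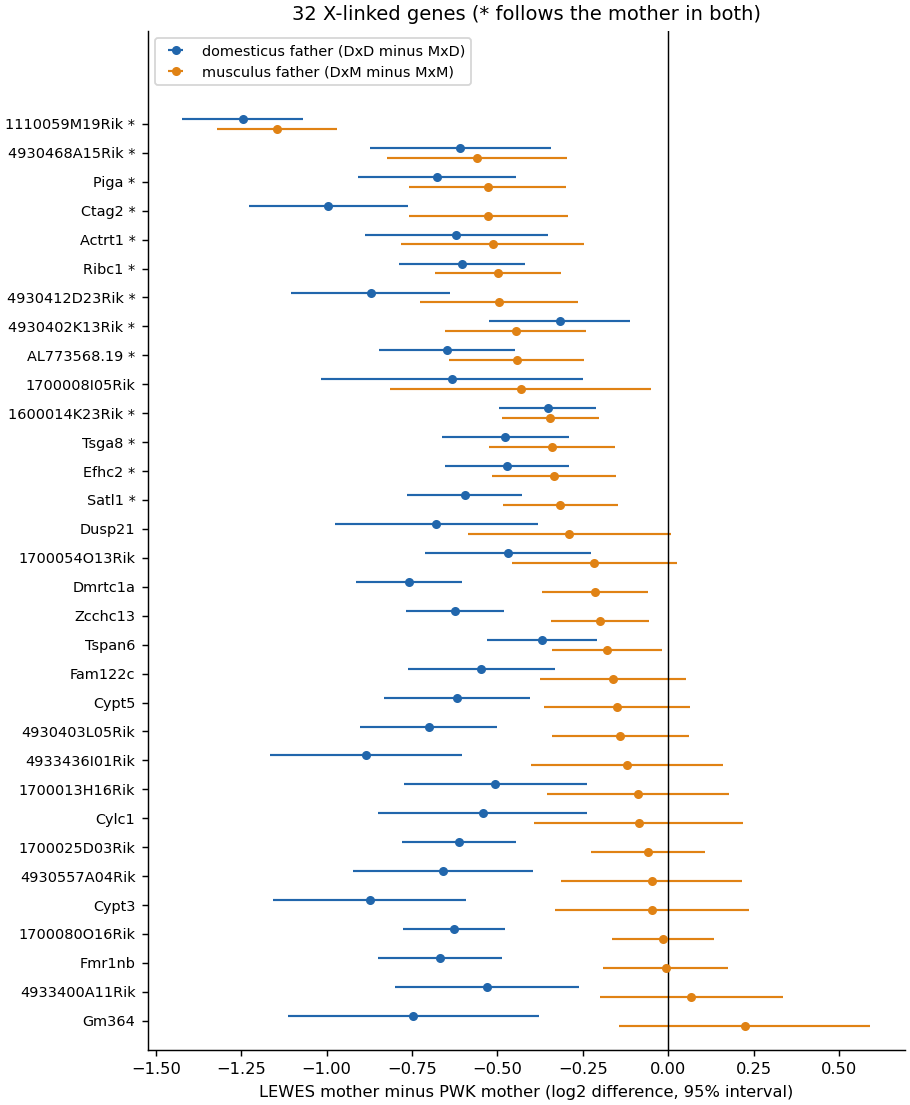
Maternal difference of the 32 X-linked genes (LEWES/EiJ mother minus PWK/PhJ mother, log2, with its 95% interval) with a domesticus father in blue and with a musculus father in orange, in the order of the musculus-father value. All blue intervals lie below 0, and the starred genes are the 13 that passed in both backgrounds.

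In 12 other X-linked genes the maternal difference passed with a domesticus father and not with a musculus father, and the difference between the 2 backgrounds passed the test. With *Ctag2* these were 13 of 32 genes, against 21.2% of all genes in either direction and 9.36% in theirs. The study's selection for a high *MxD* mean favoured a negative value of this difference, so the count is not independent evidence. *Fmr1nb* (start 66015056), another cancer/testis antigen gene, measured 7.74, 7.78 and 7.75 in *DxD* and 7.83, 7.98 and 7.76 in *DxM*. It measured 7.77, 7.85 and 7.97 in *MxM* and 8.46, 8.51 and 8.30 in *MxD*. Only the *MxD* males stood apart. The difference was -0.67 with a domesticus father and -0.01 with a musculus father (95% interval -0.19 to 0.17), and the 2 differed by -0.66 (standard error 0.12, limma adjusted p = 0.0028).

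*Cypt3* and *Cypt5* encode cysteine-rich proteins of the perinuclear theca, the capsule around the sperm nucleus. *Cypt3* (start 149993136) measured 10.75, 10.86 and 10.97 in *DxD*, 10.93, 11.28 and 10.99 in *DxM* and 10.90, 11.17 and 11.27 in *MxM*. The *MxD* males, at 11.54, 11.88 and 11.78, were above all of these. The maternal difference of *Cypt3* was -0.87 with a domesticus father and -0.05 with a musculus father (95% interval -0.33 to 0.24). *Cypt5* gave -0.62 and -0.15, and the 2 backgrounds differed by -0.47 (limma adjusted p = 0.033). For *1700080O16Rik* the values were -0.63 and -0.02, with the smallest p of the 32 for the difference between backgrounds (-0.61, limma adjusted p = 0.0016).

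*Dmrtc1a*, a DMRT-like gene, and *Zcchc13*, a zinc finger gene, fell between these patterns. Their values with a musculus father were -0.22 (limma adjusted p = 0.059) and -0.20 (limma adjusted p = 0.058), the nearest to the threshold among those that did not pass, while *Tsga8* (limma adjusted p = 0.018) was the nearest among those that did. In both genes all sons of PWK/PhJ females were above all sons of LEWES/EiJ females. The remaining 7 genes, among them *Cylc1*, a cytoskeletal gene of the sperm head, *Dusp21*, a phosphatase gene, and *Tspan6*, a tetraspanin gene, passed neither with a musculus father nor in the difference between backgrounds. *Dusp21* was at -0.68 and -0.29 (95% interval of the latter -0.59 to 0.01), and *Cylc1* at -0.54 and -0.09.

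Of the 13 autosomal genes with a name, none followed the mother in both backgrounds. They too were listed by the study for levels in *MxD* that were high for postmeiotic or low for mitotic genes. With a domesticus father 11 of the 13 passed the test, where 31% of all genes did, and with a musculus father 0 of the 13, where 16.9% did. Of the latter *BC048507* (0.22, limma adjusted p = 0.087) was the nearest. At an unadjusted p under 0.05, 3 of the 13 passed with a musculus father in limma, and after adjustment 2 passed without *MxM* replicate 3, 1 with the replicate numbers blocked and 0 by the methods' t-test. The maternal effect differed between fathers in 7 genes, against 21.2% of all genes. *Brwd1*, a bromodomain protein required for spermiogenesis, measured 6.80, 6.72 and 6.68 in *DxD* and 6.54, 6.55 and 6.49 in *DxM*. It measured 6.23, 6.28 and 6.24 in *MxD* and 6.53, 6.50 and 6.60 in *MxM*, so that *DxM* and *MxM* overlapped. Its maternal difference was 0.48 with a domesticus father and -0.02 with a musculus father, 0.50 apart (limma adjusted p = 0.0024). *Dnmt3a*, a de novo DNA methyltransferase, gave 0.31 and -0.09, and *Usp48*, a deubiquitinase, 0.35 and -0.15.

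*Cyp17a1* (chromosome 19, start 46741676), which encodes an androgen-producing enzyme of Leydig cells although the study's list places it in the postmeiotic class, had the largest change between backgrounds among the 45 genes with a name. It was lower with a LEWES/EiJ mother when the father was domesticus, by -1.09 (limma adjusted p = 0.010), and at 0.59 when the father was musculus (limma adjusted p = 0.17). The males ranged from 9.84 to 10.61 in *DxD*, 10.40 to 10.68 in *DxM*, 11.17 to 11.29 in *MxD* and 9.54 to 10.69 in *MxM*. Only the *MxD* males were apart from the others. *Spinlw1*, the protease inhibitor eppin, gave -0.50 and 0.09, *BC048507* -0.27 and 0.22, and the water channel gene *Aqp8* -0.32 and 0.00 in the same order.

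Imprinted genes, which are expressed from the allele of 1 parent, would be a direct class for a maternal comparison, but only *Meg3* (chromosome 12, start 110784505) could be matched to an identifier. *Meg3* is a non-coding RNA expressed from the maternal allele. It measured 5.83, 5.98 and 5.82 in *DxD* and 5.97, 5.73 and 5.76 in *DxM*. It measured 5.49, 5.48 and 5.34 in *MxD* and 5.80, 5.58 and 5.81 in *MxM*, and the *DxM* and *MxM* males overlapped. The difference was 0.44 with a domesticus father (standard error 0.09, limma adjusted p = 0.0047) and 0.09 with a musculus father (95% interval -0.12 to 0.29, limma adjusted p = 0.58). Over both backgrounds it was 0.26, which did not pass in the additive fit (limma adjusted p = 0.051), while the same value averaged in the fit of 4 cross means did (limma adjusted p = 0.013). *Mthfd1*, a gene of folate metabolism, was the 1 autosomal gene of the 13 with separate maternal groups, at 6.48 to 6.67 in sons of LEWES/EiJ and 6.19 to 6.40 in sons of PWK/PhJ females. Its difference over both backgrounds was 0.26 (standard error 0.06, limma adjusted p = 0.011), with 0.39 for a domesticus and 0.14 for a musculus father (limma adjusted p = 0.17).

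**Figure D4:**
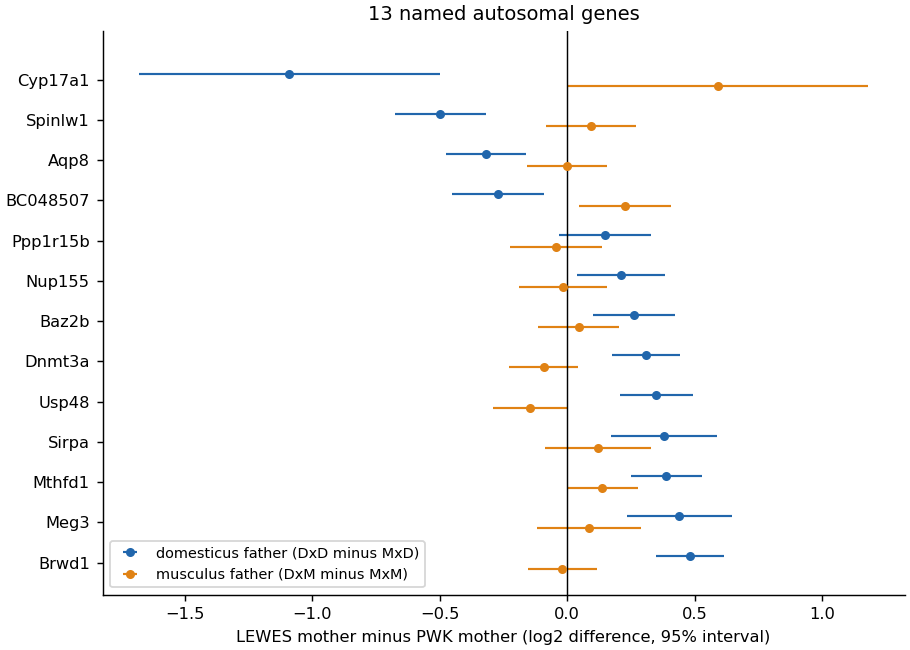
Maternal difference of the 13 named autosomal genes (LEWES/EiJ mother minus PWK/PhJ mother, log2, with its 95% interval) with a domesticus father in blue and with a musculus father in orange. The orange values lie nearer to 0 than the blue ones in all 13 genes.

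Autosomal genes with a stated chromosome followed the mother in 116 of 2005 cases, 59 higher with a LEWES/EiJ and 57 with a PWK/PhJ mother. This share of 5.79% was near the 5.31% of all genes. On chromosomes 1 to 5 the share ran from 4.82% (20 of 415 genes, chromosome 1) to 8.12% (16 of 197, chromosome 5). Chromosome 5 was covered only in part. The study assigned cell classes to autosomal genes from published expression of isolated testis cells, and 1102 such genes on chromosomes 1 to 5 were available here. Of 269 postmeiotic genes (round spermatids), 90 were higher with a LEWES/EiJ mother and 11 with a PWK/PhJ mother when the father was domesticus. Of all genes, 15.1% and 15.9% were. When the father was musculus the numbers were 21 and 40, where 6.51% and 10.4% of all genes were. These numbers became 21 and 28 without *MxM* replicate 3, and 12 and 29 without all replicate 1 arrays. The median difference was 0.22 with a domesticus father and -0.04 with a musculus father. The difference between backgrounds passed in 78 postmeiotic genes with a more positive and in 7 with a more negative value for a domesticus father, against 11.9% and 9.36% of all genes.

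Mitotic genes, highest in spermatogonia, had the opposite direction. Of 367, 11 were higher and 144 lower with a LEWES/EiJ mother when the father was domesticus, with a median of -0.26, where 15.1% of all genes were higher and 15.9% lower. With a musculus father 33 were higher and 20 lower, with a median of 0.03, where 6.51% and 10.4% of all genes were. Without all replicate 1 arrays the latter numbers were 16 and 18. The difference between backgrounds was more negative in 102 and more positive in 5, against 9.36% and 11.9% of all genes. The 324 meiotic genes had medians of 0.10 and -0.03, and the 142 somatic genes (Sertoli cells) had medians of -0.17 and -0.03. With a domesticus father, the medians of the 4 classes thus ranged from -0.26 to 0.22, and with a musculus father from -0.04 to 0.03. Genes that followed the mother in both backgrounds were 21 of the postmeiotic (17 higher with a LEWES/EiJ mother), 22 of the meiotic (14), 17 of the mitotic (6) and 6 of the somatic genes (2), where 5.31% of all genes did. In the same order these were 18, 24, 15 and 5 without *MxM* replicate 3, 28, 40, 32 and 12 with the replicate numbers blocked, and 12, 11, 7 and 2 in fits of 2 crosses.

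For 2 of the 4 classes the *MxD* males stood apart from all others. The mean deviation of the postmeiotic genes from their median over 12 males was -0.24 to -0.13 in *MxD*, and between 0.01 and 0.08 in the males of the 3 fertile crosses. For mitotic genes it was 0.10 to 0.22 in *MxD* and -0.15 to 0.02 in the fertile males. For meiotic and somatic genes *MxM* replicate 3, at -0.08 and 0.10, was within or above the *MxD* males, at -0.09 to -0.04 and 0.06 to 0.08. The part of cell composition in these differences was not tested.

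**Figure D5:**
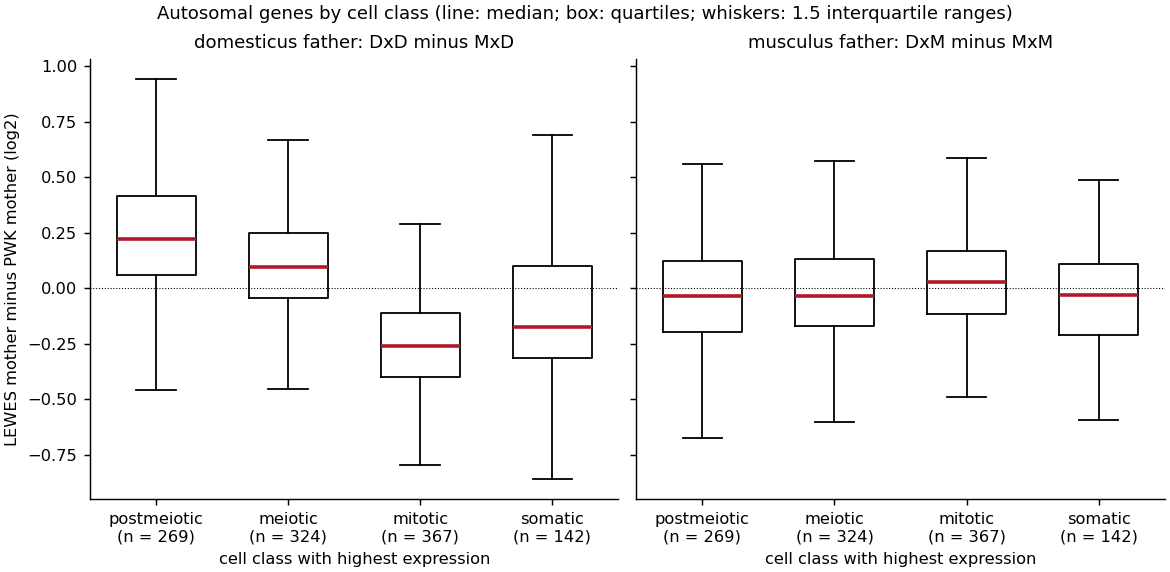
Maternal difference (LEWES/EiJ mother minus PWK/PhJ mother, log2, y axis) of autosomal genes by cell class, with a domesticus father on the left and with a musculus father on the right. The medians spread from -0.26 (mitotic) to 0.22 (postmeiotic) on the left and lie between -0.04 and 0.03 on the right.

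A further 198 genes or 2.83% passed in both backgrounds with opposite signs. All 198 also passed in the difference between backgrounds, in which opposite signs add up, so this follows from the choice. Of the 198 genes, 147 were higher with a LEWES/EiJ mother when the father was domesticus and lower when he was musculus. In those 147 only *MxD* or *DxM* could have the lowest mean, and in the other 51 only these crosses the highest. Within that limit, the *MxD* males had the lowest mean of the 4 crosses in 125 of the 198 genes and the highest in 43. By cell class these were 20 of 269 postmeiotic genes (7.43%), 10 of 324 meiotic (3.09%), 10 of 367 mitotic (2.72%) and 5 of 142 somatic genes (3.52%). Of all genes, 2.83% were. Higher with a LEWES/EiJ mother and a domesticus father were 19 of the postmeiotic, 8 of the meiotic, 0 of the mitotic and 3 of the somatic ones.

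Among genes without a name here, the largest differences that held in both backgrounds and between the hybrids were given by 4 identifiers. ENSMUSG00000021684 averaged 4.52 ± 0.12 (SD, n = 3) in *DxD*, 5.21 ± 0.12 in *DxM*, 5.78 ± 0.14 in *MxD* and 6.28 ± 0.26 in *MxM*. It followed both parents, with a maternal difference of -1.26 and -1.07 and a paternal difference that passed with both mothers (*DxD* minus *DxM* -0.69, *MxD* minus *MxM* -0.50). ENSMUSG00000063018 had no paternal difference that passed, with 6.29 ± 0.15 in *DxD*, 6.20 ± 0.20 in *DxM*, 7.41 ± 0.16 in *MxD* and 7.25 ± 0.29 in *MxM*, and paternal differences of 0.08 (limma adjusted p = 0.81) and 0.16 (limma adjusted p = 0.47). In the other direction, the postmeiotic gene ENSMUSG00000048824 on chromosome 4 averaged 7.13 ± 0.09 in *DxD*, 6.76 ± 0.10 in *DxM*, 5.91 ± 0.15 in *MxD* and 6.07 ± 0.17 in *MxM*. Its maternal difference was 1.22 with a domesticus and 0.69 with a musculus father (limma adjusted p = 0.0013 for the latter). The maternal effect differed between fathers (0.53, limma adjusted p = 0.026), and *DxD* minus *DxM* also passed (0.37, limma adjusted p = 0.039). ENSMUSG00000060161 averaged 8.16 ± 0.08, 7.91 ± 0.08, 7.46 ± 0.25 and 6.68 ± 0.15 in the same order of crosses, with differences of 0.70 and 1.23. For this gene the maternal effect differed between fathers (-0.53, limma adjusted p = 0.046), and *MxD* minus *MxM* also passed (0.78, limma adjusted p = 7.9e-04). These 4 were picked for their size, so their separation follows from the choice.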

How the data were processed

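Affymetrix mouse arrays of whole testis were available for 12 males, 3 per cross. The deposited values are log2 levels per Ensembl gene. To make them, the authors combined the probes of a gene (PLIER, with BRAINARRAY version 11 definitions), required detection in every male and applied quantile normalization. The values of 7000 genes were used as given. The array was designed from a mainly *M. domesticus* genome, and probe mismatch and expression cannot be told apart by mother in a single gene. The paper reasons that mismatch should lower the signal of *M. musculus* alleles. The 13 X-linked genes that followed the mother were higher with a PWK/PhJ mother, and so with a *M. musculus* X chromosome. *MxD* and *MxM* share that X chromosome. The part of mismatch in the maternal differences was not tested. Gene names, starts (Ensembl 52, NCBI build 37) and cell classes came from the study's gene lists. Of these, the list of all genes was held only in part (1997 genes, chromosomes 1 to 5).

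Maternal effects were tested with limma 3.58.1 (R 4.3.3), two-sided, with Benjamini-Hochberg adjustment over 7000 genes at 5%. The overall effect had mother and father subspecies as terms. The effect within each father background, the reciprocal hybrids and the difference between backgrounds came from a fit with 1 mean per cross over 12 arrays. The p-values of the cross-mean fit rest on a spread between males pooled over all crosses, although that of *MxM* was larger. Those of the overall effect also take the difference of the maternal effect between fathers into their spread. With 3 males per cross, the number of arrays limits the precision. The procedure was run on simulated data with independent males and the same spread in every cross. That run does not cover the larger spread of *MxM* or the correlations between males given next. Correlations of deviations from the cross mean were taken between males of the same replicate number. They were 0.694, 0.189 and 0.446 for *DxD* and *MxD*, and 0.756, 0.565 and 0.411 for *DxM* and *MxD*. For *DxM* and *MxM* they were 0.597, 0.207 and -0.0511. The labels do not say what the replicate numbers mark, and differently numbered males were not compared. No pairing was therefore assumed in the main fits.

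Alternatives were the replicate number as a block, weights by cross, a trend and robust prior, the dimmest 25% left out, 2 other centrings, repeated quantile normalization, a 1% threshold, fits of 2 crosses, a t-test with unequal variances, the methods' t-test (Student's), each array left out, and all replicate 1 arrays left out. The methods' t-test, centring on genes with a stated autosome, all replicate 1 arrays left out and the class counts without *MxM* replicate 3 were chosen after seeing the data. The comparison, its gene lists and the genes named were chosen with earlier results of these data known. Genes were to be named by the size of the maternal effect and by 18 marker and pathway lists, but names existed for 45 genes only. Of the lists, 13 had no match, and the others gave *Meg3*, *Dnmt3a*, *Cyp17a1*, *Brwd1*, *Ctag2*, *Actrt1* and *Cypt3*, so no list was summarised. For genes without a name, 2 identifiers per direction were given. Python 3.11.15 and matplotlib 3.10.9 made the figures.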

Additional observations from a re-analysis of the deposited data

Results flagged for a closer look

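In 1487 genes the maternal difference was not the same with a domesticus as with a musculus father (limma, difference of the 2 differences, Benjamini-Hochberg 5%). Among genes with a name, 20 were in this group. In 13 X-linked genes the difference between LEWES/EiJ and PWK/PhJ mothers was more negative with a domesticus father, on the log2 scale, in *Gm364* (-0.97), *Cypt3* (-0.83), *4933436I01Rik* (-0.77), *Fmr1nb* (-0.66), *1700080O16Rik* (-0.61), *4930557A04Rik* (-0.61), *4933400A11Rik* (-0.60), *4930403L05Rik* (-0.56), *1700025D03Rik* (-0.55), *Dmrtc1a* (-0.54), *Cypt5* (-0.47), *Ctag2* (-0.47) and *Zcchc13* (-0.42). Of the autosomal genes, it was more negative with a domesticus father in *Cyp17a1* (-1.68), *Spinlw1* (-0.59), *BC048507* (-0.50) and *Aqp8* (-0.32), and more positive in *Dnmt3a* (0.40), *Usp48* (0.49) and *Brwd1* (0.50). The limma adjusted p-values ranged from 0.0016 (*1700080O16Rik*) to 0.046 (*Aqp8*). In this contrast the sterile *MxD* males carry the same weight as each of the 3 fertile crosses, and the part of sterility in it was not tested. The genes with a name were listed by the study for their *MxD* level, which favoured a difference in this contrast. A cross of 3 males is too small for the test of a single outlying male that larger groups allow.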

How the results depend on the processing

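No named gene with a call changed sign under any alternative, but the larger side of several counts turned, where the first number is higher with a LEWES/EiJ mother. Additive calls went from 528 and 640 to 613 and 580 (arrays centred on stated autosomal genes) and 589 and 555 (without *MxM* replicate 3). Calls with a domesticus father went from 1054 and 1116 to 1288 and 981 under that centring, and to 1419 and 1417 or 800 and 786 by the methods' t-test without and with adjustment. Genes following in both went from 178 and 194 to 193 and 187 under that centring, 112 and 102 in fits of 2 crosses, 137 and 135 without the dimmest genes, and 36 and 35 by the adjusted methods' t-test. The difference between fathers turned from 832 and 655 to 857 and 880 without *MxM* replicate 3, and the hybrids turned in 7 settings, for example to 70 and 85 at a 1% threshold. With the replicate number as a block (replicate block), 1918 genes differed with a musculus father, 669 followed the mother in both backgrounds, 194 of them also between the hybrids, 1201 differed between the hybrids, and 2497 had a maternal effect that differed between fathers; of the class counts it raised genes following the mother to 40 meiotic, 32 mitotic and 12 somatic, calls with a musculus father to 106 meiotic, 85 mitotic and 37 somatic, calls with a domesticus father to 128 meiotic, differences between fathers to 109 meiotic, 167 mitotic and 49 somatic, and opposite-sign genes to 31 postmeiotic, 21 mitotic and 19 meiotic. Averaging the 4-cross fit in place of the additive fit gave 1857 genes for the maternal effect. At a 1% threshold the counts were 528 (additive), 1224 (domesticus father), 553 (musculus father), 159 (both), 28 (both and hybrids), 155 (hybrids) and 671 (difference between fathers), with 16, 8 and 6 of the X-linked genes called in the additive fit, in both backgrounds and in the difference between fathers. Fits of only 2 crosses gave 533 genes with a musculus father, 214 in both and 37 also between the hybrids, and 5 X-linked genes with a musculus father and 5 in both. The t-test with unequal variances after Benjamini-Hochberg adjustment gave 654 genes with a domesticus father, 4 with a musculus father, 2 in both, 0 between the hybrids and 0 in all of these, and 18, 0 and 0 X-linked genes with a domesticus father, a musculus father and in both. At an unadjusted p under 0.05 it gave 1050 between the hybrids and 139 in both and the hybrids. The methods' t-test after adjustment gave 179 genes with a musculus father, 71 in both, 9 between the hybrids and 2 in all of these, with 1 X-linked gene with a musculus father and 1 in both, and 1295 between the hybrids and 184 in all of these unadjusted. Without all replicate 1 arrays, 688 (additive), 272 (hybrids), 46 (both and hybrids) and 990 genes (difference between fathers) passed. With each array left out in turn the counts ran from 724 to 1397 (musculus father), 243 to 440 (both), 40 to 89 (both and hybrids) and 172 to 667 (hybrids), and the X-linked genes called in both backgrounds from 10 to 16. Here 724, 243 and 40 came without *DxM* replicate 1, 172 without *MxD* replicate 3 and 667 without *MxM* replicate 3. The cause of these shifts was not tested. The difference between fathers has no value under fits of 2 crosses or the t-tests. For the genes with a name and a musculus father, the difference stayed on its side of the threshold in 1094 gene and setting pairs, lost significance in 48 and gained it in 20. The number of arrays limits which small differences pass.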
